A study of Drosophila melanogaster with 2 samples.

Results

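The small heat shock proteins of Drosophila melanogaster are described here in larvae of the third instar with 2 copies of the allele f04929 of HP1c, which encodes a chromodomain protein of the heterochromatin protein 1 family. The set was chosen by gene name from a list of 7 genes, Hsp22, Hsp23, Hsp26, Hsp27, Hsp67Ba, Hsp67Bc and l(2)efl. All 7 were found, among 14001 genes measured, with 11 of the 29992 transcripts that could be assigned to a gene. The study holds 1 group of 2 RNA sequencing libraries, replicate 1 and replicate 2, made from Trizol-extracted total RNA of HP1c f04929/f04929 larvae reared at 25 °C. The series was designed around a pair of genotypes, but only this genotype was analysed here, so every value below describes the mutant and none describes an effect of the mutation. Nothing in the labels says whether the libraries came from separate cultures or how many larvae went into each, so the spread between them may be technical.

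The depth was 39745145 estimated reads in replicate 1 and 45177298 in replicate 2. The HP1c transcript itself stood at 0.842 TPM in replicate 1 and 1.08 TPM in replicate 2. TPM, the unit of level used here, divides the reads of a transcript by its effective length and scales each library to the same total, so TPM levels can be compared between genes. Reads of rRNA pseudogene entries made up 12.1% of replicate 1 and 2.55% of replicate 2. The markers of the stage were abundant, with all 5 larval genes checked (Sgs3, Sgs7, Lsp2, Fbp1 and Lcp1) summing to 60030.2 TPM in replicate 1, against 94563 TPM in replicate 2. The 3 yolk protein genes of adult females and 2 opsin genes of the adult eye were all below 1 TPM, and Rh3 was at 0 reads.

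Small heat shock proteins are chaperones built around a conserved alpha-crystallin domain. They form large oligomers that hold unfolding proteins in a soluble state without using ATP, until chaperones of the Hsp70 class refold them or they are degraded. In flies most of their genes are switched on by heat through the heat shock factor Hsf, and several of them, among them Hsp22, Hsp23, Hsp26 and Hsp27, are also switched on without heat by the steroid hormone ecdysone in late larvae and prepupae. The proteins work in different places. Hsp22 acts in the mitochondrial matrix, Hsp23 and Hsp26 in the cytosol and Hsp27 mainly in the nucleus. Hsp67Bc is a relative of human HSPB8 that acts with the co-chaperone Starvin in clearing damaged proteins, and l(2)efl is named for being essential for life and is a relative of alphaB-crystallin.

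Of the 7 genes, 6 lie together on chromosome arm 3L, in a cluster that runs from 9371511 to 9385694 of the BDGP6 assembly and spans 14184 bases. From left to right the order is Hsp67Bc (FBgn0001229, 9371511 to 9372497, minus strand), Hsp22 (FBgn0001223, 9372931 to 9374964, plus strand), Hsp26 (FBgn0001225, 9376418 to 9377427, minus), Hsp67Ba (FBgn0001227, 9377802 to 9379534, minus), Hsp23 (FBgn0001224, 9381882 to 9382765, plus) and Hsp27 (FBgn0001226, 9384063 to 9385694, plus). The remaining member, l(2)efl (FBgn0011296), lies on 2R at 23684651 to 23685543 on the minus strand. Every measured transcript of the 6 clustered genes has 1 exon and no intron, whereas both transcripts of l(2)efl have 3 exons. The encoded proteins are short, from 174 residues for Hsp22 through 186 for Hsp23, 187 for l(2)efl, 199 for Hsp67Bc, 208 for Hsp26 and 213 for Hsp27. Hsp67Ba stands apart with 445 residues.

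All 7 genes were detected, meaning 1 TPM or more in both libraries, as were 77.9% of all genes. Their summed level was 0.389% of all TPM in replicate 1 and 0.214% of it in replicate 2. Hsp23 and Hsp27 dominated this sum, with 56.0% and 30.8% of it in replicate 1 and 44.4% and 35.0% in replicate 2. The levels of the 7 genes in replicate 1 spanned from 18.7 to 2179.6 TPM, and those in replicate 2 from 13.9 to 948 TPM. In whole larvae, a difference in the number of expressing cells and a difference in RNA per cell cannot be told apart.

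The cytosolic chaperone gene Hsp23 was the most abundant. It stood at 2179.6 TPM in replicate 1 (95% interval for counting error 2161 to 2198), on 55147 reads. In replicate 2 it stood at 948 TPM (938 to 959), on 31248 reads, and the 2 libraries averaged 1564 ± 871 TPM (SD, n = 2). By TPM this placed it 65th of all genes in replicate 1 and 168th in replicate 2.

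Hsp27, the nuclear member, followed. It had 1200.2 TPM (1189 to 1211) in replicate 1 and 748 TPM (740.1 to 755) in replicate 2, a mean of 974 ± 320.0 TPM (SD, n = 2). Within a library, Hsp23 exceeded Hsp27 by 1.82-fold in replicate 1 and by 1.27-fold in replicate 2. The order of this pair by TPM was therefore the same in both libraries, although their ranges over the 2 libraries overlapped. In reads, which are not corrected for length, Hsp27 exceeded Hsp23 in replicate 2 (37559 against 31248) but not in replicate 1.

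Outside the cluster, l(2)efl had 166 TPM (161 to 172) in replicate 1, on 3487 reads, against 284 TPM (278 to 290.4) in replicate 2, on 7795 reads. Its mean of 225 ± 83.1 TPM (SD, n = 2) put it at the third place of the set. It was the one member with its higher value in replicate 2. Relative to Hsp23 it came to 7.64% in replicate 1 and 29.9% in replicate 2.

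Hsp26 and Hsp67Bc had similar mean levels. Hsp26, a cytosolic chaperone, stood at 138 TPM (134 to 142) in replicate 1 and 65.7 TPM (63.1 to 68.3) in replicate 2, a mean of 102 ± 51.0 TPM (SD, n = 2). Hsp67Bc, the HSPB8 relative, stood at 141 TPM (137 to 145) in replicate 1 and 49.6 TPM (47.5 to 51.9) in replicate 2, a mean of 95.2 ± 64.5 TPM (SD, n = 2). Their order changed between the libraries, so the 2 genes cannot be ranked against each other.

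The lowest levels belonged to Hsp67Ba and Hsp22. Hsp67Ba, the gene of the longest protein, had 49.3 TPM (47.5 to 51.2) in replicate 1 and 28.6 TPM (27.4 to 29.8) in replicate 2, a mean of 38.9 ± 14.7 TPM (SD, n = 2). Hsp22, the mitochondrial member, had 18.7 TPM (17.2 to 20.4) in replicate 1, on 544 reads, against 13.9 TPM (12.8 to 15.2) in replicate 2, on 532 reads, a mean of 16.3 ± 3.40 TPM (SD, n = 2). Hsp22 was also the least variable member, with an SD of 20.8% of its mean, against 67.7% for Hsp67Bc at the other end. Its level was 0.859% of Hsp23 in replicate 1 and 1.47% in replicate 2.

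**Figure D1:**
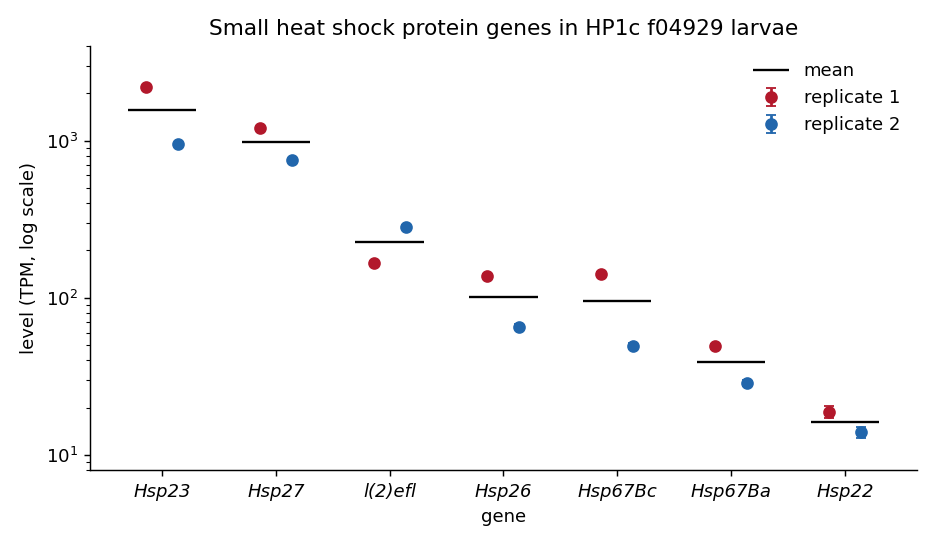
Level of each small heat shock protein gene in TPM on a log scale, with replicate 1 left of replicate 2, a black bar at the mean of the 2 libraries and 95% Poisson intervals for counting error that are mostly smaller than the points. Hsp23 and Hsp27 lie at 748 TPM or more in both libraries, Hsp22 lies at 18.7 TPM or less, and l(2)efl is the gene with the higher point in replicate 2.

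Along the order of mean levels, the ranges of neighbours overlapped for Hsp23 and Hsp27 and for Hsp26 and Hsp67Bc. They did not overlap for the other 4 pairs of neighbours. The closest of these was Hsp67Bc over Hsp67Ba, whose lowest and highest values were 49.6 and 49.3 TPM, but within a library Hsp67Bc was 2.86-fold higher in replicate 1 and 1.74-fold higher in replicate 2. The distance between l(2)efl and Hsp26 varied most, at 1.21-fold in replicate 1 and 4.33-fold in replicate 2.

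Transcript values were examined next, to see which forms of each gene carried the reads. For 4 of the genes, Hsp23, Hsp26, Hsp27 and l(2)efl, 2 transcripts were measured, and within each of these genes they encode the same protein length. They differ outside the coding region, in the 3′ untranslated region for Hsp23 and Hsp27 and in the 5′ one for Hsp26 and l(2)efl. In each of the 4 genes 1 form led in both libraries.

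For Hsp27 the shorter form RA held 98.9% of the gene's TPM in both libraries, and the form RB with 412 more bases of 3′ untranslated region stood at 12.6 TPM in replicate 1 and 8.16 TPM in replicate 2. For l(2)efl, RA held 94.8% in replicate 1 and 94.3% in replicate 2. Its forms differ by 3 bases, so only reads over those bases tell them apart. For Hsp26, RA made up 96.1% of the gene in replicate 1 and 90.0% in replicate 2, and RB, which starts 52 bases further upstream, stood at 5.34 and 6.59 TPM.

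The Hsp23 forms were shared out differently in the libraries. Hsp23-RA had 1412 TPM in replicate 1 and 767 TPM in replicate 2, whereas Hsp23-RB had 767 TPM in replicate 1 and 181 TPM in replicate 2. RB thus made up 35.2% of the gene in replicate 1 and 19.1% in replicate 2. RB carries 35 bases more than RA at its 3′ end, so only reads that reach that stretch separate the forms. The interval of a transcript value does not cover the error of sharing reads between forms.

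**Figure D2:**
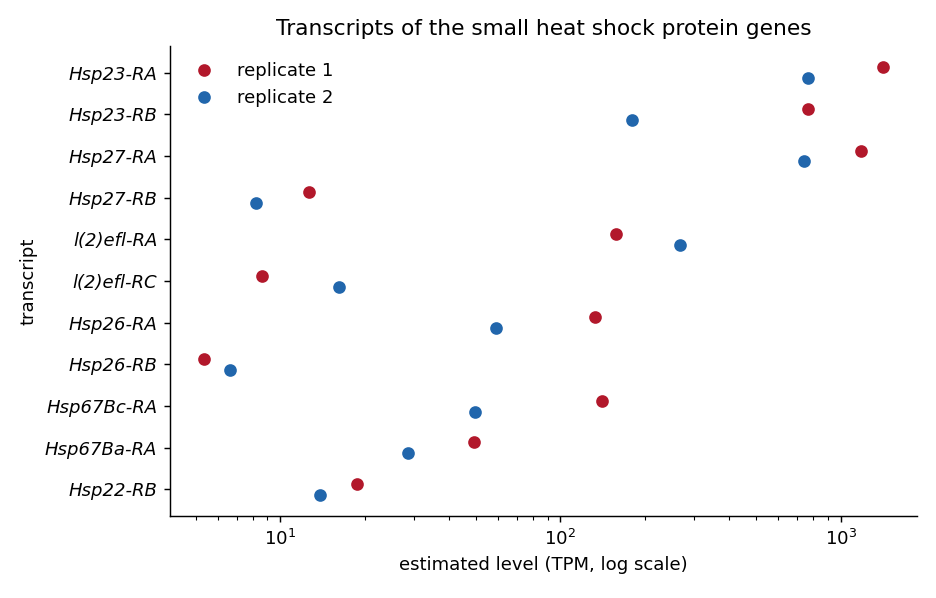
Estimated level of each measured transcript in TPM on a log scale, with genes in the order of their mean level from top to bottom and replicate 1 drawn above replicate 2 in each row. Hsp23-RB shows the widest gap between the libraries, at 767 and 181 TPM, and Hsp26-RB and both l(2)efl forms have their higher value in replicate 2.

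Hsp22 needs separate care. Besides the 1-exon form Hsp22-RB, which was measured, the annotation lists Hsp22-RA, a long form that also carries the reading frame of the upstream gene CG4456 (FBgn0001228, also known as Hsp67Bb). Hsp22-RA has exactly the exons of CG4456-RB, so reads assigned to that long form stand under CG4456-RB. That entry had 1.42 TPM in replicate 1 and 1.08 TPM in replicate 2, on 88 and 89 reads. These reads are an estimated share, because the long form has bases in common with Hsp22-RB and with the shorter CG4456 forms. Counting CG4456-RB with Hsp22 gave 20.1 and 15.0 TPM in replicates 1 and 2, against 18.7 and 13.9 TPM without it. The short form CG4456-RA ends upstream of Hsp22-RB and lacks the reading frame of Hsp22. It stood at 23.7 and 13.9 TPM, above Hsp22 in replicate 1 and level with Hsp22 in replicate 2.

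Exons of other genes overlap the members in 3 more places, each on the opposite strand, and no source used here says whether the libraries keep the strand. The antisense RNA asRNA:CR43481 covers 75.9% of the exon bases of Hsp67Ba and was not analysed here, so the reads of Hsp67Ba may include some of it. St3 shares 75 bases with l(2)efl and stood at 6.72 and 9.45 TPM in replicates 1 and 2. The pseudogene CR43483 shares 49 bases with the end of Hsp27-RB and stood at 56.6 and 29.1 TPM. St3 lay far below the level of l(2)efl in both libraries. CR43483 lay above Hsp27-RB in both, and below the Hsp27 sum.

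The libraries were then compared, to show how much the genes varied within the mutant group. Estimated reads were scaled with TMM, and ratios are given for replicate 1 over replicate 2, so a positive log2 ratio means more in replicate 1. All 6 clustered genes lay towards replicate 1, and l(2)efl lay towards replicate 2. Over all 12206 genes that averaged at least 10 reads, the median log2 ratio was -0.02 and the quartiles were -0.19 and 0.19. The median over the 7 members was 0.76. With 2 libraries of 1 group there is no test over replicates, and the intervals below cover counting error only.

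Hsp67Bc had the largest ratio of the set, 2.79-fold (interval 2.65 to 2.95), from 4189 reads in replicate 1 and 1941 in replicate 2. Hsp23 followed at 2.28-fold (2.25 to 2.32), and Hsp26 at 2.06-fold (1.96 to 2.17), from 3966 and 2494 reads. These 3 genes were at least 2-fold higher in replicate 1 with an interval that excluded 1. By the same rule 5.42% of all genes were called in either direction, 4.10% with more in replicate 1 and 1.32% with more in replicate 2. No member was called with more in replicate 2. Single transcripts varied more widely, with 19.5% of the 23649 that averaged at least 10 reads called in either direction, 10.8% with more in replicate 1 and 8.72% with more in replicate 2. Of the 11 member transcripts 3 were called, all with more in replicate 1.

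The other clustered genes had smaller ratios in the same direction. Hsp67Ba was 1.69-fold higher in replicate 1 (1.60 to 1.79), Hsp27 1.58-fold (1.56 to 1.60) and Hsp22 1.32-fold (1.17 to 1.49). For l(2)efl the log2 ratio was -0.79, or 1.73-fold more in replicate 2 (1.66 to 1.80). Among the log2 ratios of all genes with enough reads, l(2)efl lay at the 2.5th percentile and the clustered genes lay between the 86.9th percentile for Hsp22 and the 97.7th for Hsp67Bc. The sign of each of the 7 ratios was the same with TMM, DESeq2 size factors or library size alone and as a ratio of TPM with or without rRNA. The size was not, because library size alone moves every log2 ratio by -0.19 and ratios of TPM without rRNA have a median over all genes that lies 0.12 above that of TMM-scaled reads. With library size alone Hsp26 came to 0.85 on the log2 scale, and 2 members instead of 3 passed 2-fold, beside 5.49% of all genes.

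**Figure D3:**
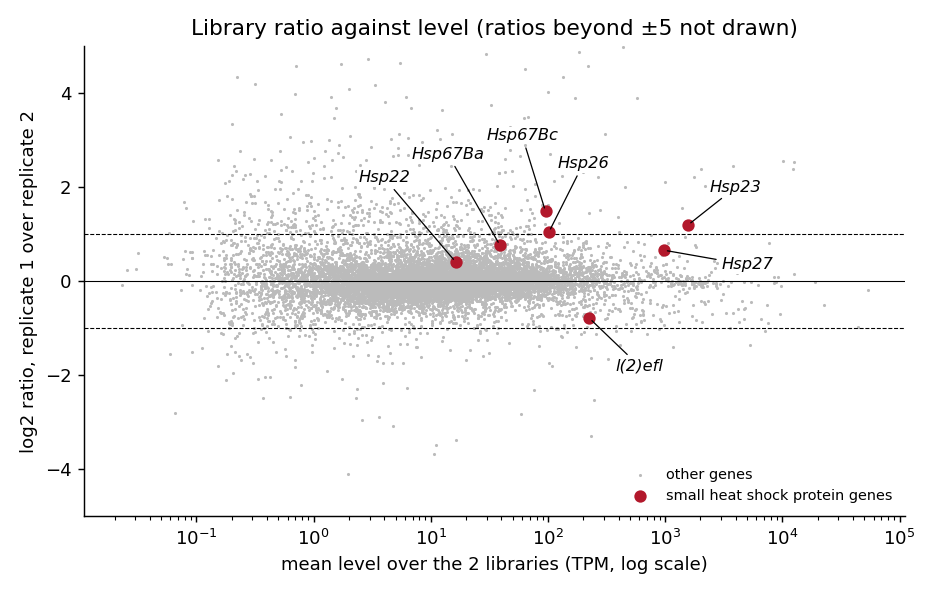
Log2 ratio of TMM-scaled reads, replicate 1 over replicate 2, against the mean level in TPM on a log scale, for genes averaging at least 10 reads, with dashed lines at 2-fold. The small heat shock protein genes are the large points, of which Hsp67Bc, Hsp26 and Hsp23 lie above the upper dashed line and l(2)efl lies below 0 at -0.79.

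The 3L cluster was set beside its genomic neighbours, taking every measured gene within 10 kb of a member. To the left of the cluster, the 6 genes Pdxk, CG34456, Klp67A, mRRF1, CG4452 and Fdx1 had log2 ratios between -0.35 and 0.05. The nearest of them, the ferredoxin gene Fdx1, ends at 9371238, just before Hsp67Bc, and stood at 8.53 and 8.61 TPM in replicates 1 and 2. From Hsp67Bc to the right edge of the window, all measured genes with enough reads had log2 ratios above 0. Inside the cluster, CG4456 had a log2 ratio of 0.45, beside 0.40 for Hsp22. Of its forms only CG4456-RB, at 0.36, shares bases with the measured Hsp22-RB. CG4456-RA and CG4456-RD end upstream of Hsp22-RB and had log2 ratios of 0.77 and 0.11.

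To the right of Hsp27, CR43483 and CG4080 had log2 ratios of 0.95 and 0.72. CG4080 has no exon overlap with a member and stood at 53.8 TPM in replicate 1 and 31.9 TPM in replicate 2. Its ratio of 1.65-fold (1.59 to 1.71) was close to those of Hsp27 and Hsp67Ba. The pseudogene CR43482 beside it had 0 reads in both libraries. Near l(2)efl on 2R, the 5 neighbours with enough reads had log2 ratios between -0.54 and 0.22, so l(2)efl at -0.79 lay below all of them. The closest was St3 at -0.54, which overlaps it.

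**Figure D4:**
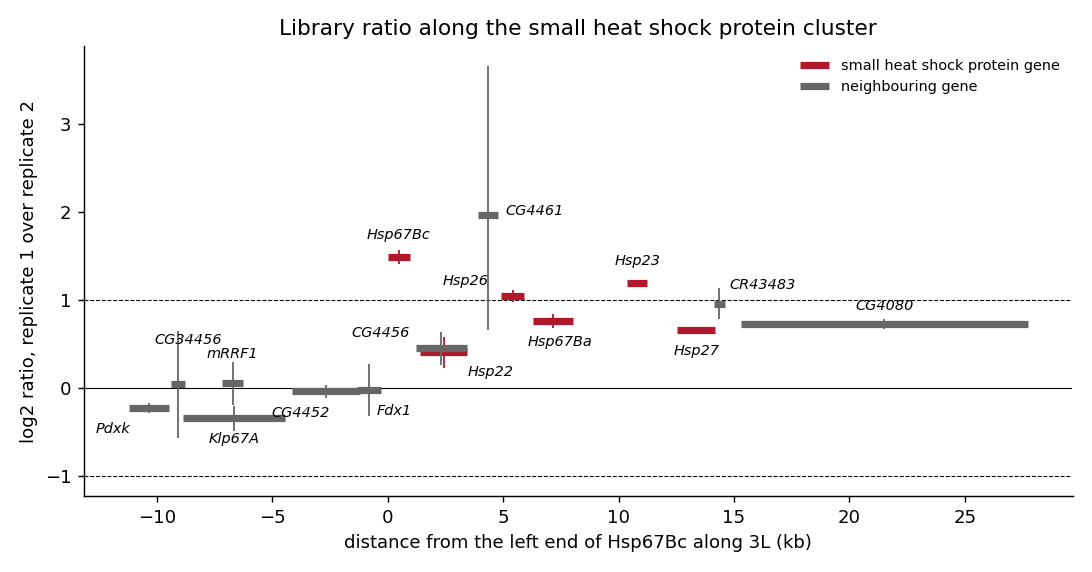
Log2 ratio, replicate 1 over replicate 2, of each measured gene with enough reads along the 3L cluster, drawn as a bar over the extent of the gene at its distance in kb from the left end of Hsp67Bc, with thin vertical lines for the 95% counting interval and dashed lines at 2-fold. The genes left of Hsp67Bc lie between -0.35 and 0.05, and the genes from Hsp67Bc to CG4080 lie above 0.

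Other genes with an alpha-crystallin domain were far less uniform in level. Of the 5 listed, CG14207, another relative of HSPB8, stood at 434 TPM in replicate 1 and 354 TPM in replicate 2, above every member except Hsp23 and Hsp27 in both libraries. CG43851 stood at 4.96 and 5.27 TPM. CG7409 had 0.644 and 0.422 TPM, from 14 and 12 reads, and CG13133 had 2 reads in each library. CG4461 lies inside the 3L cluster, between Hsp22 and Hsp26 (9375430 to 9376293), and had 0.748 TPM in replicate 1 and 0.180 TPM in replicate 2.

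CG4461 was thus far below every member of the cluster in both libraries. Its ratio was 4.10-fold (1.57 to 12.5), from only 19 and 6 reads. Of the 4 listed genes with enough reads it was the 1 called, beside 5.42% of all genes called in either direction. The median log2 ratio of these 4 listed genes was 0.43.

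The larger heat shock proteins were examined next, with their co-chaperones, the regulator Hsf and chaperones made without heat. Transcripts of the regulator Hsf stood at 22.3 TPM in replicate 1 and 22.1 TPM in replicate 2. The strictly heat-inducible Hsp70 genes were low, with 4.45 and 6.93 TPM summed over 6 near-identical copies, on 348 and 717 reads. Between these copies reads cannot be assigned with certainty. Hsp68 stood at 20.9 and 23.0 TPM. The constitutive chaperone gene Hsc70-4 had 1236 and 1399 TPM, so Hsp23 came to 1.76 times its level in replicate 1 and 0.678 times in replicate 2.

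None of the 11 genes of this list with enough reads was 2-fold higher in replicate 1, beside 4.10% of all genes. With 11 genes, a count of 0 is near that share. The median log2 ratio of the list was -0.21, and all 11 ratios lay below 0 with TMM. Hsf lay just above 0 with DESeq2 size factors and as a ratio of TPM, and Hsf and Hsp60A did so with rRNA left out. With more in replicate 2, 2 genes were called, beside 1.32% of all genes. They were Hsp70Bc and Hsp70Bbb, Hsp70 copies with few reads, and the 6 copies summed gave 1.59-fold more in replicate 2 (1.40 to 1.81). The Hsp90 gene Hsp83 had 225 and 386 TPM in replicates 1 and 2, a log2 ratio of -0.81 that was near the -0.79 of l(2)efl. The co-chaperone genes stv, the partner of Hsp67Bc, and DnaJ-1 had log2 ratios of -0.13 and -0.14, while Hsp67Bc had 1.48.

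Many ecdysone response genes also lay towards replicate 1. Of the 19 measured, 7 passed the 2-fold rule with more in replicate 1 and 0 with more in replicate 2, beside 4.10% and 1.32% of all genes, with a median log2 ratio of 0.57. The ecdysone-induced disc gene ImpE2 had 572 TPM in replicate 1 and 219 TPM in replicate 2, ImpE1 40.4 and 13.6 TPM, and the nuclear receptor gene Eip78C 63.7 and 12.7 TPM. The nuclear receptor gene Hr3 differed most, at 8.25 and 0.901 TPM. All of these were among the 7 called. The genes br, Eip74EF and Eip75B, which were not called, had smaller log2 ratios of 0.57, 0.55 and 0.47. Transcripts of the receptor subunits varied little, with EcR at 109 and 104 TPM and usp at 29.6 and 26.8 TPM.

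The list was not uniform, as 3 of its genes, ftz-f1, ImpL2 and MsrA, had log2 ratios below 0, and with library size alone EcR and usp did too. Of the 5 larval markers, the glue genes Sgs3 and Sgs7 went the other way, with log2 ratios of -1.07 and -0.97. Lcp1 had -0.69, Lsp2 had -0.03, and Fbp1, which is also in the ecdysone list, had 0.80. The share of rRNA reads and the levels of these hormone response genes, glue genes and Lcp1 thus differed between the same libraries as the small heat shock protein genes. Their part in the ratios of the members was not tested.

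**Figure D5:**
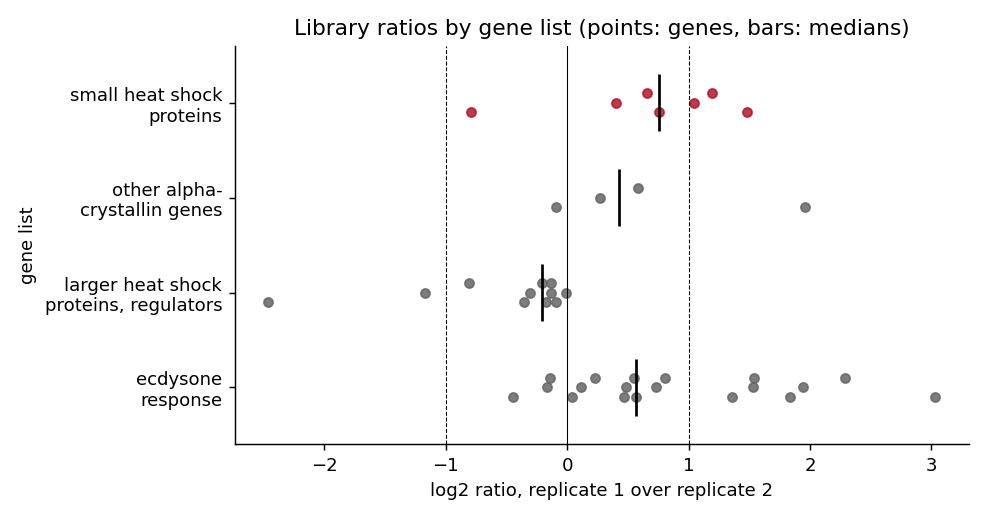
Log2 ratio, replicate 1 over replicate 2, of each gene with enough reads in 4 gene lists, with a vertical bar at each list's median and dashed lines at 2-fold. The small heat shock protein genes have a median of 0.76 with l(2)efl alone below 0, the larger heat shock proteins and regulators a median of -0.21 and the ecdysone response genes a median of 0.57.

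The genes most like Hsp23 in level were found by distance in log2(TPM + 1) over the 2 libraries. The nearest was Lsp1alpha, a larval serum protein gene, with 1968 TPM in replicate 1 and 998 TPM in replicate 2. CG2444 followed with 2099 and 711 TPM, and Lsp1gamma, of the same serum protein family, with 2300.2 and 1322 TPM. With 2 libraries, this likeness amounts to a similar level and a similar ratio.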

How the data were processed

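Each table deposited by the authors lists FlyBase transcripts with their lengths, TPM and estimated counts. Per the file headers the columns are named as salmon names them, but no source used here names the quantifier, the build or the annotation. Per the submitters' processing notes, the tools included STAR 2.5.2 and HTSeq 0.6.1 besides bcl2fastq 2.18.0.12, Picard and FastQC, without a stated role. Of 30119 transcripts, 29992 were matched by identifier to the Ensembl release 115 annotation of BDGP6, whose coordinates are printed. The 127 others held 0.0981% of the reads in replicate 1 and 0.110% in replicate 2 and were not used.

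Both measures were added up over the transcripts of a gene. Estimated counts were rounded, then scaled by TMM (edgeR 4.0.16, R 4.3.3), and log2 ratios were computed with 0.5 reads added. Intervals are at the 95% level, exact Poisson for a level and exact Clopper-Pearson for a ratio. They cover counting error alone, since reads are not independent molecules. A gene was called where it averaged at least 10 reads and was 2-fold or more apart with an interval that excluded 1. No p-value was computed, because there is 1 group. The genes and lists were chosen with earlier results of these data known. Named genes are all members and their transcripts, genes of the lists, measured genes within 10 kb of a member, and the 3 genes nearest to the most abundant member. One listed symbol, Eip71CD, is an older name of MsrA and was counted once.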

Additional observations from a re-analysis of the deposited data

How the results depend on the processing

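No paired analysis was possible because the libraries analysed here form 1 group. A ratio needs both libraries, so none can be left out of it. With each library alone, the members held from 0.214% to 0.389% of the TPM and all 7 were detected. The mean share was 0.302% ± 0.124 (SD, n = 2), and it was 0.320% with rRNA left out and 0.239% as a share of reads. All 7 were also detected at 0.5 and at 5 TPM. The number of members past the ratio threshold was 6 at 1.5-fold, of which 5 were higher in replicate 1 and l(2)efl higher in replicate 2, and 0 at 4-fold. The matching numbers over all 12206 genes were 1490 (12.2%) at 1.5-fold and 203 (1.66%) at 4-fold, against 662 (5.42%) in the main comparison. With 7 members, a count of 0 at 4-fold is near the share of all genes. Among genes averaging at least 100 reads, which are fewer, the number was 383 of 10352 (3.70%). By direction, library size alone turned the 501 genes with more in replicate 1 and 161 with more in replicate 2 into 394 and 276. The number of members was 2 with library size alone, beside 5.49% of all genes. It was 3 with DESeq2 1.42.0 size factors (5.42% of all genes), with an average of at least 100 reads (3.70%) and without a filter (5.24%). Added after the data were seen, ratios of TPM with or without rRNA also put 3 members at 2-fold or more. Those counts used neither the interval nor the read rule, and their share over all genes was not computed. Taken as single transcripts, 3 of 11 passed, namely Hsp23-RB, Hsp26-RA and Hsp67Bc-RA, beside 19.5% of all transcripts, while Hsp23-RA stood at 1.81-fold. The median log2 ratio of the members ranged from 0.57 with library size alone to 0.88 as a ratio of TPM without rRNA, beside medians of all genes of -0.21 and 0.10. In CPM, which ignores length, Hsp22 stood at 12.7, Hsp67Ba at 58.3 and l(2)efl at 130.3, the 3 levels that moved by more than their SD. Hsp22 with CG4456-RB, also added later, had a mean of 17.6 TPM and a log2 ratio of 0.40. Depth limits CG4461, CG7409 and CG13133, with at most 19 reads.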
